A study of Mus musculus with 3186 samples.

Results

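Perivascular fibroblasts of the adult mouse brain were described from single-cell RNA sequencing of cells sorted by reporter fluorescence. The fibroblasts were 85 of 257 cells from Pdgfra-H2BGFP mice, in which a nuclear green fluorescent protein marks cells that use the gene of platelet-derived growth factor receptor alpha, and 3186 cells were sequenced in all. A cell was a member when at least 2 of the 4 markers Col1a1, Col1a2, Dcn and Lum had 50 CPM or more, where CPM is a gene's reads per 1000000 reads in genes. These 4 genes therefore chose the cells, and their values are a description. They were set against the other 172 Pdgfra-H2BGFP cells, against 1484 cells of a line that carries both Pdgfrb(BAC)eGFP and NG2dsRed (the mural line), and against 1445 cells of a Cldn5(BAC)eGFP line (the Cldn5 line). The BAC transgenes drive eGFP from the regions of a receptor gene of mural cells and of a tight junction gene of endothelium, and dsRed follows NG2, a mural and glial proteoglycan. All animals were C57BL/6 mice aged 12 to 15 weeks, and the Pdgfra-H2BGFP reporter also marks the oligodendrocyte lineage. The labels name no animals, so each line counts as 1 sample and no test was possible. Levels of the fibroblasts are given for each plate, and those of the other groups are mostly sums over their plates.

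Fibroblasts of the brain lie in the space around larger vessels, outside the mural cells, and in the meninges. They build the fibrillar collagens, small proteoglycans and microfibrils of the adventitia and of the pia, and they are known as a source of scar matrix after injury. Pericytes and smooth muscle cells sit closer to the endothelium, within the vascular basement membrane. Fibroblasts share the receptor Pdgfrb with these mural cells, while Pdgfra is typical of the fibroblasts and of oligodendrocyte progenitors.

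Members were not spread evenly over the 2 Pdgfra-H2BGFP plates. Plate Pdgfra1 held 57 members among 107 cells, 53.3% (exact binomial interval 43.4 to 63.0%), and plate Pdgfra2 held 28 among 150, 18.7% (12.8 to 25.8%). Over both plates the share was 33.1% (27.4 to 39.2%), and these 95% intervals, like all others here, cover counting error alone. All 4 markers reached 50 CPM in 64 members, 3 did in 11 and 2 in 10, while 166 of the other 172 cells had none and 6 had a single marker. The second-highest marker had 57.7, 66.1 and 79.8 CPM in the members nearest the threshold, and 32.4, 21.4 and 13.9 CPM in the nearest cells outside it. In 125 of the other cells the second-highest marker had no read.

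The 2 plates also differed in depth. Members of Pdgfra1 had a median of 864783 reads (209524 to 1606954) and 4486 genes with a read, and members of Pdgfra2 had 167711.5 reads (101545 to 504962) and 2453 genes. With each cell thinned to 100000 reads the medians were 3749 genes on Pdgfra1 and 2312.5 genes on Pdgfra2, so the gap was not removed by equal depth. Plate Pdgfra1 gave 89.6% of the reads in the sum of all members, which is why levels are given for each plate. No 2 cells had identical counts. The ribosomal repeat Rn45s took 15470 CPM in fibroblasts of Pdgfra1 and 80290 CPM in those of Pdgfra2, and totals without it are among the alternatives.

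The markers that defined the cells separated them widely from the rest of the line. Col1a1 encodes the alpha-1 chain of collagen I, the main fibrillar collagen, and lies on chromosome 11 from 94936224 to 94953042 (mm10, plus strand, protein coding). It had 1141 CPM in fibroblasts of Pdgfra1 and 1205 CPM in those of Pdgfra2, against 1.62 CPM in the other Pdgfra-H2BGFP cells and 0.0962 CPM in the mural line. The counting interval of its summed value, 1148 CPM, was 1139 to 1157 CPM. Single cells of Pdgfra1 ran from no read over a median of 900.4 to 4615 CPM, and those of Pdgfra2 from no read over 1044 to 3575 CPM. Col1a1 was at 50 CPM in 50 of 57 and 26 of 28 members, so its level was near the same on both plates. Col1a2, the alpha-2 chain of the same trimer (chromosome 6, 4504814 to 4541544, plus strand), had 1917 CPM in fibroblasts of Pdgfra1 and 1402 CPM in those of Pdgfra2. Its level was 0.542 CPM in the other Pdgfra-H2BGFP cells and 202 CPM in the mural line, so the mural line shared Col1a2 but not Col1a1.

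Dcn and Lum encode decorin and lumican, small leucine-rich proteoglycans that coat collagen fibrils, and lie next to each other on chromosome 10 (Dcn 97479609 to 97518143, Lum 97565128 to 97572703, both on the plus strand). Dcn had 17613 CPM in fibroblasts of Pdgfra1 and 6349 CPM in those of Pdgfra2, against 8.77 CPM in the other Pdgfra-H2BGFP cells and 86.1 CPM in the mural line. Single fibroblasts ranged over 144, 8934 and 95154 CPM (lowest, median, highest) on Pdgfra1 and 0, 1447 and 21372 CPM on Pdgfra2. Lum had 6462 CPM in fibroblasts of Pdgfra1 and 1646 CPM in those of Pdgfra2, against 1.04 CPM in the other cells of the line and 0.160 CPM in the mural line. It was at 50 CPM in 50 of 57 members on Pdgfra1 and 18 of 28 on Pdgfra2, and its median cell had 4791 CPM on Pdgfra1 and 362 CPM on Pdgfra2. Both proteoglycans were thus lower on Pdgfra2, unlike Col1a1. Per kilobase of exon, the levels on Pdgfra1 were 3017 CPM for Dcn, 2639.8 for Lum, 174 for Col1a1 and 154 for Col1a2.

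**Figure D1:**
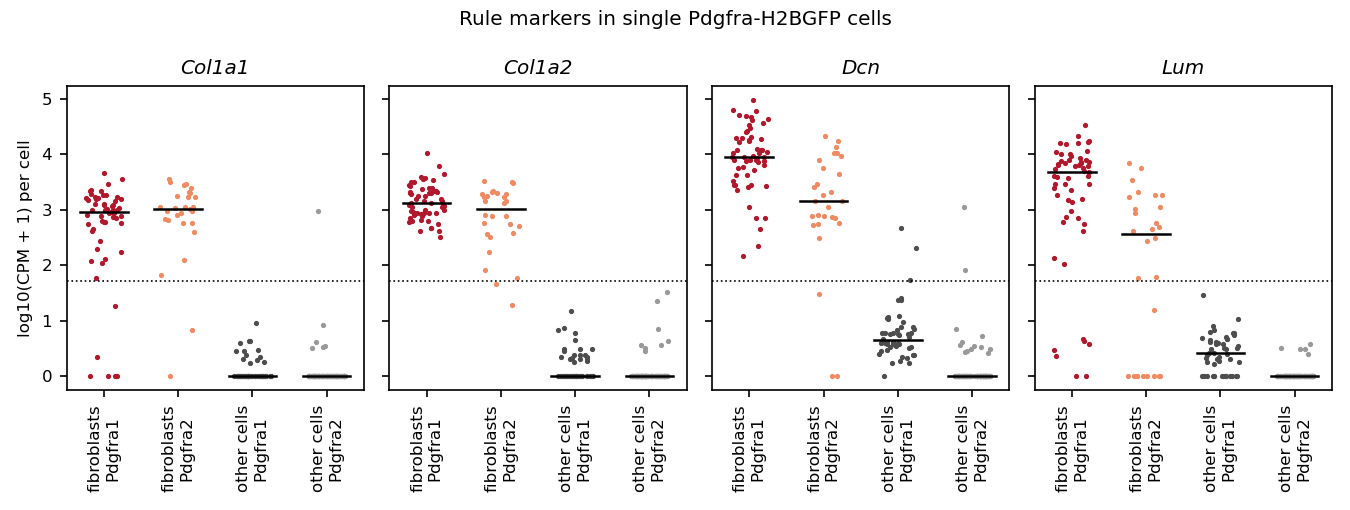
Levels of the 4 rule markers in single Pdgfra-H2BGFP cells, as log10(CPM + 1), for fibroblasts and other cells of plates Pdgfra1 and Pdgfra2. Points are cells, bars are medians and the dotted line is the threshold of 50 CPM. Most fibroblasts lie far above the line for every marker, with Lum at no read in a number of cells of Pdgfra2, and the other cells lie near 0.

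Reporter genes were read in the fibroblasts. Pdgfra had 271 CPM in fibroblasts of Pdgfra1 and 269.6 CPM in those of Pdgfra2, against 53.4 CPM in the other Pdgfra-H2BGFP cells, 0.188 CPM in the mural line and 0.512 CPM in the Cldn5 line. The eGFP transcript, read here from the nuclear reporter, had 75.1 CPM in fibroblasts of Pdgfra1 and 105 CPM in those of Pdgfra2 and 13.6 CPM in the other cells of the line. Fibroblasts also carried the mural receptor Pdgfrb, with 988 CPM in fibroblasts of Pdgfra1 and 543 CPM in those of Pdgfra2, against 4288 CPM in the mural line. Cspg4, the gene of NG2, had 131 CPM in fibroblasts of Pdgfra1 and 214 CPM in those of Pdgfra2 and 1909 CPM in the mural line. Part of the Cspg4 reads lay in members that also held pericyte markers: without the 28 members called mixed further on, the fibroblasts had 4.81 CPM of Cspg4 on Pdgfra1 and 225 CPM on Pdgfra2, and 839 and 545 CPM of Pdgfrb. Both mural reporter genes were at a lower level in the fibroblasts than in the mural line.

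A list of 16 further genes that are used as fibroblast genes took no part in the rule. It was chosen with earlier results of these data known, so its counts are a description. The list does not tell fibroblasts around vessels from those of the meninges. All 16 were at least 2-fold above the mural line, where 16.5% of 11646 genes with 5 CPM on either side were, and 15 lay higher on both fibroblast plates than on every mural plate, where 10.7% of genes did. The count was also 16 of 16 against the other Pdgfra-H2BGFP cells (background 28.0%) and against the Cldn5 line (background 24.3%). The median log2 ratio of the list to the mural line was 5.36, and that of all genes tested was -0.12. The median of all genes was 0.17 against the other Pdgfra-H2BGFP cells and 0.02 against the Cldn5 line. Col3a1, the collagen III chain that accompanies collagen I, had 1606 CPM in fibroblasts of Pdgfra1 and 738 CPM in those of Pdgfra2, against 57.4 CPM in the mural line. Serping1, the inhibitor of complement C1, had 3311 CPM in fibroblasts of Pdgfra1 and 747 CPM in those of Pdgfra2, against 249 CPM in the mural line. Serpinf1, which encodes pigment epithelium-derived factor, had 1426 CPM in fibroblasts of Pdgfra1 and 799.9 CPM in those of Pdgfra2 and 0.731 CPM in the mural line. Dpt, the gene of dermatopontin, was the exception, with 81.6 CPM in fibroblasts of Pdgfra1 and no read in those of Pdgfra2, and it was singled out after its values were seen. Several of the 16 genes are also counted in the matrix lists described next.

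**Figure D2:**
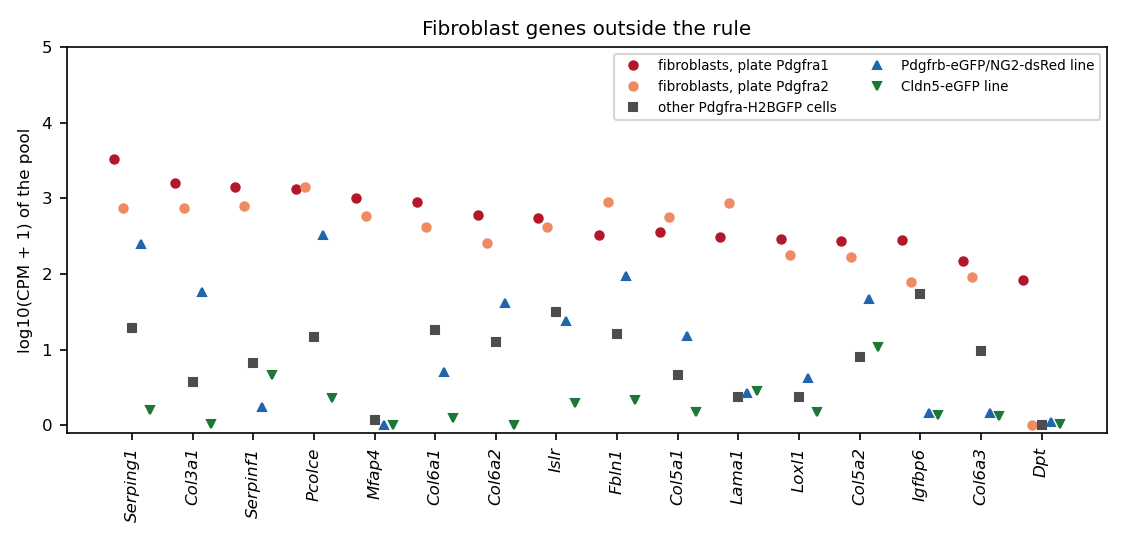
Levels of 16 fibroblast genes outside the rule, as log10(CPM + 1) of summed cells, in fibroblasts of each plate, other Pdgfra-H2BGFP cells, the mural line and the Cldn5 line. Fibroblasts of Pdgfra1 lie above the other cells of the line, the mural line and the Cldn5 line for each gene, and those of Pdgfra2 do so for each gene but Dpt, which had no read there.

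Genes of other cell types were read in the fibroblasts to different degrees. The 8 oligodendrocyte markers summed to 467 CPM in fibroblasts of Pdgfra1 and 577 CPM in those of Pdgfra2, against 92894 CPM in the other Pdgfra-H2BGFP cells. Most of the fibroblasts' sum was Cldn11, whose levels are given with the adhesion genes below. The 6 pericyte markers summed to 4596 and 1918 CPM in the fibroblasts of Pdgfra1 and Pdgfra2, against 45353 CPM in the mural line. The 6 endothelial markers summed to 1412 and 741 CPM in them, against 36170.1 CPM in the Cldn5 line. Much of that endothelial sum was Emcn, the sialoglycoprotein endomucin, with 1366 CPM in fibroblasts of Pdgfra1 and 257 CPM in those of Pdgfra2, 481 CPM in the mural line and 1427 CPM in the Cldn5 line. The defining endothelial genes Cldn5 and Pecam1 were near 0 on Pdgfra1 (0.0599 and 0.419 CPM in its fibroblasts), and had 134 and 9.45 CPM on Pdgfra2, where a single member reached 50 CPM of each. Emcn itself was at 50 CPM in 37 of 57 members on Pdgfra1 and 8 of 28 on Pdgfra2.

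A member was called mixed when its summed markers of another type reached 10% of that type's own median. This held for 18 members with pericyte markers, 9 with endothelial, 3 with smooth muscle, 2 with microglia and 0 with oligodendrocyte markers, together 28 of 85 (32.9%). By plate they were 20 of 57 on Pdgfra1 and 8 of 28 on Pdgfra2. The 18 members with the pericyte call had 11780.1 CPM of Vtn, a matrix protein of pericytes, and the other members 634 CPM. Vtn had the highest level of the pericyte markers in the 18, and it was at 50 CPM in 48 of all 85 members. Higd1b, which marks pericytes closely, had 38.3 CPM in the 18 and no read in the others, against 1138 CPM in the mural line. Only 2 members had Higd1b at 50 CPM, so the call rested mainly on Vtn. Kcnj8 and Abcc9, the subunits of the vascular ATP-sensitive potassium channel, were read in both kinds of member, with 1488 and 778 CPM in the 18 and 282 and 261 CPM in the others. The endothelial call followed Emcn. All 9 called members had it at 50 CPM, with 3989.7 CPM in the 9 and 946 CPM in the other members, where the threshold for the summed markers was 3417 CPM. On Pdgfra1, which held 7 of the 9, none of them had Cldn5 or Pecam1 at 50 CPM and 0 passed the threshold without Emcn, while both called members of Pdgfra2 did and 1 of them had Cldn5 and Pecam1 at 50 CPM. Without the 28 mixed members the 16 fibroblast genes were again all at least 2-fold above the mural line. Several values given below were lower by over 2-fold without these members. On Pdgfra1 Aldh1a2 then had 67.4 CPM, Aspn 52.0, Heyl 66.0, Gjc1 14.5, Smoc2 213 and Kcnj8 189.5 CPM. On Pdgfra2 Acta2 had 31.4 and Podn 20.0 CPM. Each of these stayed on the same side of the mural line. Microglial markers summed to 343 CPM in fibroblasts of Pdgfra1 and 553 CPM in those of Pdgfra2, of which Tmem119 made up 203 and 188 CPM. That gene was also read in the mural line, at 4.56 CPM, and in the other Pdgfra-H2BGFP cells, at 92.2 CPM. Perivascular macrophage markers summed to 13.2 CPM on Pdgfra1 and 150.3 CPM on Pdgfra2, where 22 of 28 members had no read of them and a single member had 6826 CPM, without which the sum was 5.09 CPM. Astrocyte markers summed to 43.1 and 72.3 CPM, and choroid plexus markers to 45.2 and 116 CPM on the same plates. Markers of oligodendrocyte progenitors summed to 6.59 and 13.2 CPM, and those of neurons, ependyma, T or NK cells and erythroid cells lay between 0.0798 and 17.0 CPM on each plate.

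Collagen chains beyond those of the rule were higher in the fibroblasts than in every other group, with few exceptions. Of 24 chains with 5 CPM on either side, 20 were at least 2-fold above the mural line and 1 was lower, and 18 of those higher had no overlap between plates. The background against the mural line was 16.5% of genes higher and 16.7% lower. Against the other Pdgfra-H2BGFP cells it was 28.0% and 20.8%, and against the Cldn5 line 24.3% and 17.4%. These shares of all genes are the background for every list below. The median log2 ratio of the chains was 3.77. Against the Cldn5 line 23 of 23 were higher, and against the other Pdgfra-H2BGFP cells 22 of 27 were higher and 4 lower, or 2 lower on Pdgfra2 alone (background for lower 20.8%). Col6a1, a chain of the beaded collagen VI filaments around cells, had 902 CPM in fibroblasts of Pdgfra1 and 421 CPM in those of Pdgfra2, against 4.05 CPM in the mural line. Its partner chain Col6a3 had 148 CPM in fibroblasts of Pdgfra1 and 89.0 CPM in those of Pdgfra2, against 0.471 CPM in the mural line. Both collagen VI chains were thus near absent from the mural line. Col15a1, a chain of the zone beside basement membranes, had 153 CPM in fibroblasts of Pdgfra1 and 445 CPM in those of Pdgfra2 and 0.248 CPM in the mural line. Col12a1, a chain that binds to fibril surfaces, had 301 CPM in fibroblasts of Pdgfra1 and 538 CPM in those of Pdgfra2, against 14.1 CPM in the mural line. Among all chains, 18 of 31 chains had 20 CPM on both fibroblast plates, against 8 in the mural line and 2 in the Cldn5 line. Between the plates the chains went both ways, 7 (4 without the mixed members) at least 2-fold higher and 8 at least 2-fold lower on Pdgfra1 than on Pdgfra2, near the shares of all genes (30.3% higher and 24.9% lower of 11851). Col8a1, a network-forming chain, had 420.4 CPM in fibroblasts of Pdgfra1 and 50.8 CPM in those of Pdgfra2.

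Proteoglycans and genes of hyaluronan, a list that also holds glypicans, syndecans and versican, were shared in part with mural cells. Of 19 genes of the list, 12 were at least 2-fold above the mural line and 3 lower (all genes 16.5% and 16.7%). Their median log2 ratio was 1.36. Against the other Pdgfra-H2BGFP cells 16 of 22 were higher and 4 lower, or 1 lower on Pdgfra2 alone, and against the Cldn5 line 18 of 19 were higher. Bgn, the gene of biglycan, a close relative of decorin, had 4474 CPM in fibroblasts of Pdgfra1 and 1875 CPM in those of Pdgfra2, against 1664 CPM in the mural line. Ogn (osteoglycin) had 939.9 CPM in fibroblasts of Pdgfra1 and 663 CPM in those of Pdgfra2 and 253 CPM in the mural line, and Prelp had 1241 CPM in fibroblasts of Pdgfra1 and 986 CPM in those of Pdgfra2 and 472 CPM in the mural line. Fmod (fibromodulin), which guides fibril assembly, had 89.5 CPM in fibroblasts of Pdgfra1 and 529 CPM in those of Pdgfra2, against 16.9 CPM in the mural line. Podn (podocan) was nearly absent from the mural line, with 198 CPM in fibroblasts of Pdgfra1 and 41.7 CPM in those of Pdgfra2 and 0.0140 CPM in the mural line. On the other side stood Aspn (asporin), with 144 CPM in fibroblasts of Pdgfra1 and 4.47 CPM in those of Pdgfra2 and 478 CPM in the mural line, and Gpc3, a glypican of the cell surface, with 186 CPM in fibroblasts of Pdgfra1 and 17.0 CPM in those of Pdgfra2 and 436 CPM in the mural line. Asporin and glypican-3 were thus lower than in mural cells on each plate.

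Elastic fibre and microfibril genes were largely higher as well. Of 22 genes 20 were at least 2-fold above the mural line, 16 with no overlap between plates (all genes 16.5% and 10.7%). At least 2-fold lower was 1, or 0 on Pdgfra2 alone (all genes 16.7%), and the median log2 ratio was 2.79. Against the Cldn5 line 21 of 22 were higher, and against the other Pdgfra-H2BGFP cells 21 of 23 were higher and 2 lower, or 1 lower on Pdgfra1 alone. Mfap4, a microfibril-associated glycoprotein, had 1007 CPM in fibroblasts of Pdgfra1 and 588 CPM in those of Pdgfra2, 0.187 CPM in the other Pdgfra-H2BGFP cells and no read in the mural or the Cldn5 line. It was at 50 CPM in 34 of 57 members on Pdgfra1 and 15 of 28 on Pdgfra2, so it marked many but not all of them. Efemp1 (fibulin-3) had 2416 CPM in fibroblasts of Pdgfra1 and 1144 CPM in those of Pdgfra2, against 3.06 CPM in the mural line. Emilin1, which bridges elastin and microfibrils, had 689 CPM in fibroblasts of Pdgfra1 and 213 CPM in those of Pdgfra2 and 87.8 CPM in the mural line. Fbln7 (fibulin-7) had 373 CPM in fibroblasts of Pdgfra1 and 401 CPM in those of Pdgfra2 and 4.55 CPM in the mural line, and Mfap5 had 165 CPM in fibroblasts of Pdgfra1 and 46.7 CPM in those of Pdgfra2 and 0.106 CPM in the mural line. Each of these microfibril genes was thus higher on both fibroblast plates than in the mural line as a whole.

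Basement membrane genes differed in that mural cells expressed most of them as well. The count was 7 of 22 at least 2-fold above the mural line and 3 lower (all genes 16.5% and 16.7%). The median log2 ratio was 0.65, and 7 were lower without the mixed members or 6 on Pdgfra2 alone. Of the whole list 20 of 25 genes had 20 CPM in the fibroblasts and 19 in the mural line. Against the other Pdgfra-H2BGFP cells 19 of 22 were higher, and against the Cldn5 line 13 of 23 were higher and 5 lower (background for lower 17.4%). The laminin chain Lama1 set the fibroblasts apart, with 306 CPM in fibroblasts of Pdgfra1 and 856 CPM in those of Pdgfra2, against 1.65 CPM in the mural line and 1.82 CPM in the Cldn5 line. Lamb1, the beta-1 laminin chain, had 603 CPM in fibroblasts of Pdgfra1 and 577 CPM in those of Pdgfra2 and 136 CPM in the mural line. Lama2, the laminin chain of vascular and muscle basement membranes, had 1021 CPM in fibroblasts of Pdgfra1 and 579 CPM in those of Pdgfra2 and 575 CPM in the mural line. Lama5, a chain of the endothelial basement membrane, had 2.85 CPM in fibroblasts of Pdgfra1 and 0 CPM in those of Pdgfra2, against 109 CPM in the mural line and 169.8 CPM in the Cldn5 line. The collagen IV chain Col4a1 had 409.5 CPM in fibroblasts of Pdgfra1 and 862 CPM in those of Pdgfra2 and 601 CPM in the mural line, a difference within 2-fold on each plate. Sparc, a collagen-binding protein of many stromal cells, had 3113 CPM in fibroblasts of Pdgfra1 and 2141 CPM in those of Pdgfra2, against 1998 CPM in the mural line and 3934 CPM in the Cldn5 line.

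Enzymes that process and turn over collagen were present on the building and on the degrading side. Of 26 genes 16 were at least 2-fold above the mural line and 2 lower (all genes 16.5% and 16.7%). Without the mixed members 4 were lower, and the median log2 ratio of all members was 1.73. Against the other Pdgfra-H2BGFP cells 18 of 27 were higher and 4 lower, or 2 lower on Pdgfra2 alone, and against the Cldn5 line 21 of 24 were higher. Pcolce, which speeds the removal of the procollagen C-propeptide, had 1343 CPM in fibroblasts of Pdgfra1 and 1411 CPM in those of Pdgfra2, against 328 CPM in the mural line. Serpinh1 (Hsp47), the collagen chaperone, had 459.7 CPM in fibroblasts of Pdgfra1 and 235 CPM in those of Pdgfra2 and 328 CPM in the mural line. Mmp2 (gelatinase A) had 567 CPM in fibroblasts of Pdgfra1 and 149.6 CPM in those of Pdgfra2, against 1.14 CPM in the mural line, and its activator Mmp14 had 576 CPM in fibroblasts of Pdgfra1 and 325 CPM in those of Pdgfra2 and 262 CPM in the mural line. The inhibitor Timp3 had 5952 CPM in fibroblasts of Pdgfra1 and 1365 CPM in those of Pdgfra2 and 1186 CPM in the mural line. Mmp2 was thus the gene of this group that the mural line nearly lacked, while Serpinh1 differed by less than 2-fold on each plate.

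Genes of the insulin-like growth factor system were among the growth factor genes with higher levels in the fibroblasts. Of 34 genes of the growth factor list 20 were at least 2-fold above the mural line and 6 lower (all genes 16.5% and 16.7%). The median log2 ratio was 1.88, and with fibroblasts of Pdgfra2 alone 15 were higher and 11 lower. Igf2, a growth factor known from leptomeninges and choroid plexus, had 429.6 CPM in fibroblasts of Pdgfra1 and 2611 CPM in those of Pdgfra2, against 172 CPM in the mural line and 0.494 CPM in the Cldn5 line. Without the mixed members Igf2 had 134 CPM on Pdgfra1, below the mural line, and 1849.5 CPM on Pdgfra2, so its higher level rested on Pdgfra2. Igfbp2, a binding protein of these factors, had 198 CPM in fibroblasts of Pdgfra1 and 1677 CPM in those of Pdgfra2, against 1.28 CPM in the mural line. The binding protein gene Igfbp4 had 3666 CPM in fibroblasts of Pdgfra1 and 1802 CPM in those of Pdgfra2, against 49.1 CPM in the mural line. A further one, Igfbp5, had 1184 CPM in fibroblasts of Pdgfra1 and 2648 CPM in those of Pdgfra2, against 7.12 CPM in the mural line. Igfbp7 was shared with both vascular lines, with 7033 CPM in fibroblasts of Pdgfra1 and 706 CPM in those of Pdgfra2, 4605 CPM in the mural line and 1607 CPM in the Cldn5 line. Igfbp2 and Igf2 were higher on Pdgfra2, and Igfbp7 was higher on Pdgfra1. Pdgfrl, a receptor-like secreted protein, had 313 CPM in fibroblasts of Pdgfra1 and 173 CPM in those of Pdgfra2 and 27.6 CPM in the mural line.

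Members of the TGF-beta and BMP pathway were mostly on the higher side, with 14 of 24 at least 2-fold above the mural line and 2 lower. Among all genes 16.5% were higher and 16.7% lower, and the median log2 ratio of the pathway was 1.38. Tgfbi, a matrix protein induced by TGF-beta, had 5138 CPM in fibroblasts of Pdgfra1 and 867 CPM in those of Pdgfra2, against 86.3 CPM in the mural line and 0.0735 CPM in the Cldn5 line. The ligand Bmp7 had 135 CPM in fibroblasts of Pdgfra1 and 393 CPM in those of Pdgfra2 and 2.04 CPM in the mural line, while the ligand Bmp5 had 122 CPM in fibroblasts of Pdgfra1 and 144 CPM in those of Pdgfra2 and 102 CPM in the mural line and did not differ by 2-fold. Fstl1, a secreted follistatin-like protein, had 1206 CPM in fibroblasts of Pdgfra1 and 942 CPM in those of Pdgfra2 and 373 CPM in the mural line. Among 22 Wnt genes 17 were at least 2-fold above the mural line and 2 lower, or 4 lower on Pdgfra2 alone (median log2 ratio 3.08). The ligand Wnt5a had 131 CPM in fibroblasts of Pdgfra1 and 129 CPM in those of Pdgfra2 and 2.00 CPM in the mural line, and the secreted modulator Dkk3 had 348 CPM in fibroblasts of Pdgfra1 and 258 CPM in those of Pdgfra2 and 32.2 CPM in the mural line. The secreted frizzled-related proteins, which bind Wnt ligands, went both ways. Sfrp4 had 249.6 CPM in fibroblasts of Pdgfra1 and 28.2 CPM in those of Pdgfra2 and 0.0421 CPM in the mural line, and Sfrp2 had 10.4 CPM in fibroblasts of Pdgfra1 and 3.61 CPM in those of Pdgfra2 and 144 CPM in the mural line. Without the mixed members Sfrp4 had 36.9 CPM on Pdgfra1 and 36.1 CPM on Pdgfra2, so that its difference between the plates was no longer seen, and Sfrp2 had 0.728 and 4.40 CPM. Sfrp4 was above and Sfrp2 below the mural line on each plate, with and without these members.

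Retinoid and lipid genes were largely higher than in the mural line. Of 17 retinoid genes 12 were at least 2-fold above the mural line and 1 lower, or 2 lower on Pdgfra2 alone. The shares of all genes were 16.5% and 16.7%, and the median log2 ratio of the list was 1.81. Against the other Pdgfra-H2BGFP cells 17 of 17 were higher, and 10 of them were at least 2-fold higher on both plates (all genes 28.0% and 16.6%). With Pdgfra2 alone 13 were higher, and with Pdgfra1 alone 14 were higher and 2 lower. Aldh1a2, the retinaldehyde dehydrogenase that makes retinoic acid in the meninges, had 155 CPM in fibroblasts of Pdgfra1 and 341 CPM in those of Pdgfra2, against 1.08 CPM in the mural line. Cyp1b1, a cytochrome P450 enzyme, had 530.4 CPM in fibroblasts of Pdgfra1 and 234 CPM in those of Pdgfra2 and 3.58 CPM in the mural line. Of 20 prostaglandin and lipid carrier genes 17 were higher and 1 lower than in the mural line, or 2 lower on Pdgfra2 alone (median log2 ratio 3.30). The other Pdgfra-H2BGFP cells shared part of them, with 13 of 21 higher and 4 lower in the fibroblasts (all genes 28.0% and 20.8%, median log2 ratio 1.48). Summed, the list had 22426.6 CPM in fibroblasts of Pdgfra1 and 62166.5 CPM in those of Pdgfra2, against 20550.5 CPM in these other cells. Apod, the lipid carrier apolipoprotein D, had 12021 CPM in fibroblasts of Pdgfra1 and 18080 CPM in those of Pdgfra2, 4522 CPM in the other Pdgfra-H2BGFP cells and 163 CPM in the mural line. Lrp1, a receptor for lipoproteins, had 1532 CPM in fibroblasts of Pdgfra1 and 2828 CPM in those of Pdgfra2 and 717 CPM in the mural line, and it was at 50 CPM in every member. The single gene of this list at least 2-fold below the mural line was Scarb1, a receptor for high-density lipoprotein, with 6.53 CPM in fibroblasts of Pdgfra1 and 0.172 CPM in those of Pdgfra2 and 179.8 CPM in the mural line.

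Ptgds, the lipocalin-type prostaglandin D synthase known from the leptomeninges and from oligodendrocytes, had summed levels that lay on opposite sides of the other cells on the 2 plates. Fibroblasts of Pdgfra1 had 1250.1 CPM, against 12770 CPM in the other cells of that plate, and fibroblasts of Pdgfra2 had 31562 CPM, against 11977 CPM in the other cells of that plate. The log2 ratio was therefore -3.35 on Pdgfra1 and 1.40 on Pdgfra2, and the difference between plates was not tested. The sums rested on few cells. The median member had 3.70 CPM on Pdgfra1 and 857 CPM on Pdgfra2, against medians of 5204 and 9718 CPM in the other cells of these plates, so the median was lower in the fibroblasts on both plates. On Pdgfra2 11 of 28 members, and on Pdgfra1 4 of 57, were above the summed level of the other cells of their plate, and single members reached 53185 CPM on Pdgfra1 and 249422 CPM on Pdgfra2. The mural line had 3.01 CPM and the Cldn5 line 4.47 CPM. At 50 CPM or more were 12 of 57 members on Pdgfra1 and 18 of 28 on Pdgfra2.

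Against the mural line 15 of 31 solute carriers and channels were at least 2-fold higher and 7 lower (all genes 16.5% and 16.7%). Their median log2 ratio was 0.70. Against the other Pdgfra-H2BGFP cells 26 of 34 were higher and 2 lower, or 5 lower on Pdgfra1 alone. Slc7a11, the cystine and glutamate exchanger, had 325 CPM in fibroblasts of Pdgfra1 and 1156 CPM in those of Pdgfra2, against 2.23 CPM in the mural line. Slc13a4, a sulfate transporter, had 63.8 CPM in fibroblasts of Pdgfra1 and 543 CPM in those of Pdgfra2 and 0.176 CPM in the mural line, and Slc22a6, an organic anion transporter, had 66.4 CPM in fibroblasts of Pdgfra1 and 458 CPM in those of Pdgfra2 and 0.0381 CPM in the mural line. Slc6a13, the GABA transporter GAT2, had 337 CPM in fibroblasts of Pdgfra1 and 1888 CPM in those of Pdgfra2, against 214 CPM in the mural line, so it passed 2-fold on Pdgfra2 and not on Pdgfra1. Mural cells had the higher level of Slc6a20a, a proline transporter, with 119 CPM in fibroblasts of Pdgfra1 and 134 CPM in those of Pdgfra2 and 1359.9 CPM in the mural line. The same held for Kcnj8, the pore of the vascular ATP-sensitive potassium channel, with 614 CPM in fibroblasts of Pdgfra1 and 108 CPM in those of Pdgfra2 and 2566 CPM in the mural line. Without the mixed members Kcnj8 had 189.5 CPM on Pdgfra1 and 138 CPM on Pdgfra2. The carriers named here as higher than mural cells were all at their higher level on Pdgfra2.

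Chemokine, complement and adhesion genes for leukocytes were largely on the higher side. Of 27 chemokine, complement and immune genes 21 were at least 2-fold above the mural line and 3 lower (all genes 16.5% and 16.7%). Their median log2 ratio was 3.61. Cxcl12, the ligand of Cxcr4, had 3147 CPM in fibroblasts of Pdgfra1 and 1676 CPM in those of Pdgfra2, 756 CPM in the mural line and 1876 CPM in the Cldn5 line. Vcam1, an adhesion molecule for leukocytes, had 2410.5 CPM in fibroblasts of Pdgfra1 and 439.7 CPM in those of Pdgfra2, against 5.92 CPM in the mural line. Il33, an alarmin, had 613 CPM in fibroblasts of Pdgfra1 and 379.7 CPM in those of Pdgfra2 and 0.723 CPM in the mural line, below the 1756 CPM of the other Pdgfra-H2BGFP cells. Cd248 (endosialin), often used as a fibroblast marker elsewhere, was lower than in mural cells, with 147 CPM in fibroblasts of Pdgfra1 and 183 CPM in those of Pdgfra2 and 733 CPM in the mural line. Among coagulation genes 14 of 18 were higher and 0 lower than in the mural line, or 1 lower on Pdgfra2 alone (median log2 ratio 2.70). F3, the tissue factor that starts coagulation outside the vessel, had 1890 CPM in fibroblasts of Pdgfra1 and 434 CPM in those of Pdgfra2, against 1.88 CPM in the mural line.

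Developmental transcription factors were largely on the higher side against the other Pdgfra-H2BGFP cells. Of 39 factors 16 were at least 2-fold above the mural line and 7 lower (median log2 ratio 0.79), whereas 35 of 36 were higher than in the other Pdgfra-H2BGFP cells and 29 of 38 higher than in the Cldn5 line. The shares of all genes that were higher were 16.5%, 28.0% and 24.3% in these 3 comparisons, and the difference between the comparisons was not tested. Tbx18, a factor of mural and adventitial cells, had 205 CPM in fibroblasts of Pdgfra1 and 589 CPM in those of Pdgfra2 and 141 CPM in the mural line. Nr2f2 (COUP-TFII) had 294 CPM in fibroblasts of Pdgfra1 and 344 CPM in those of Pdgfra2 and 252 CPM in the mural line, within 2-fold on each plate. Osr1, a factor of embryonic mesenchyme, had 16.7 CPM in fibroblasts of Pdgfra1 and 104 CPM in those of Pdgfra2 and 0.0902 CPM in the mural line. Heyl, a Notch target of mural cells, had 173 CPM in fibroblasts of Pdgfra1 and 62.3 CPM in those of Pdgfra2 and 783 CPM in the mural line.

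Adhesion genes added markers of cell contact. Of 28 genes 17 were at least 2-fold above the mural line and 4 lower (all genes 16.5% and 16.7%). Their median log2 ratio was 2.45. The connexin genes Gjb2 and Gjb6 had 287 and 278 CPM in fibroblasts of Pdgfra1, 266 and 663 CPM in those of Pdgfra2, and 5.49 and 0.793 CPM in the mural line. Gjc1 (connexin 45) showed the opposite order, with 41.0 CPM in fibroblasts of Pdgfra1 and 87.8 CPM in those of Pdgfra2 and 579 CPM in the mural line. Cldn11, a claudin of arachnoid and myelin, had 425 CPM in fibroblasts of Pdgfra1 and 451 CPM in those of Pdgfra2, against 0.301 CPM in the mural line and 5926 CPM in the other Pdgfra-H2BGFP cells. Itga8, an integrin of mesenchyme, had 812 CPM in fibroblasts of Pdgfra1 and 273 CPM in those of Pdgfra2 and 51.9 CPM in the mural line. Pdpn (podoplanin) had 164 CPM in fibroblasts of Pdgfra1 and 101 CPM in those of Pdgfra2 and 2.54 CPM in the mural line.

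Contractile genes were on the lower side. None of 16 was at least 2-fold higher and 13 were at least 2-fold lower, each of them with no overlap between plates, where 13.4% of all genes were. The median log2 ratio was -2.77. Acta2, smooth muscle actin, had 29.7 CPM in fibroblasts of Pdgfra1 and 111 CPM in those of Pdgfra2, against 4266 CPM in the mural line, and Myh11, the smooth muscle myosin heavy chain, had 4.05 CPM in fibroblasts of Pdgfra1 and 2.92 CPM in those of Pdgfra2 and 902 CPM in the mural line. Cald1 (caldesmon), which non-muscle cells use too, had 915 CPM in fibroblasts of Pdgfra1 and 1172 CPM in those of Pdgfra2 and 2266 CPM in the mural line. Against the Cldn5 line 9 of 13 contractile genes were higher in the fibroblasts, and 12 of 12 were higher than in the other Pdgfra-H2BGFP cells. Outside the lists, Nodal had no read in any fibroblast and 244 CPM in the mural line, and Atp13a5, a pericyte transporter, had 81.2 CPM in fibroblasts of Pdgfra1 and 209 CPM in those of Pdgfra2 and 7962 CPM in the mural line. Without the mixed members Atp13a5 had 0.728 CPM on Pdgfra1 and 262 CPM on Pdgfra2.

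**Figure D3:**
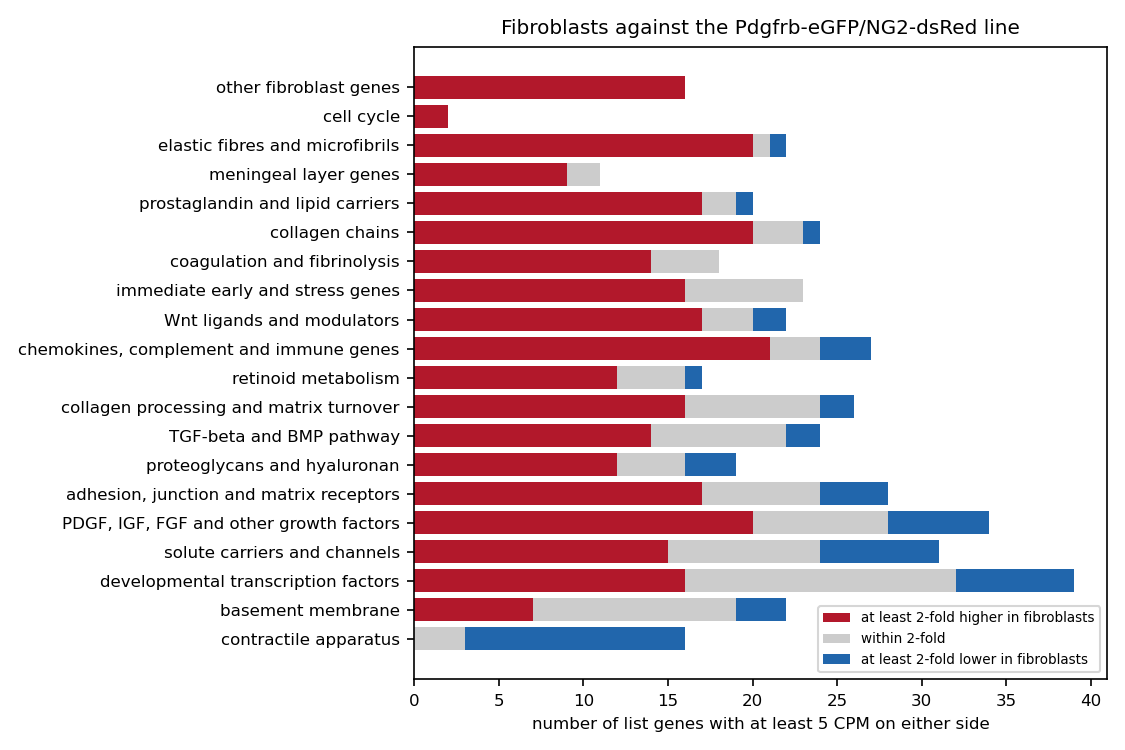
Numbers of genes of each list that were at least 2-fold higher, within 2-fold, or at least 2-fold lower in the fibroblasts than in the mural line (Pdgfrb-eGFP/NG2-dsRed), among list genes with 5 CPM on either side. Every gene of the list of other fibroblast genes was higher, and 13 of 16 contractile genes were lower.

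Several genes outside the lists were among those with the largest ratios. Moxd1, a monooxygenase-like protein, had 4542 CPM in fibroblasts of Pdgfra1 and 191 CPM in those of Pdgfra2, 2.92 CPM in the other Pdgfra-H2BGFP cells and 2.00 CPM in the mural line. Coch, a secreted protein known from the inner ear, had 2914 CPM in fibroblasts of Pdgfra1 and 393 CPM in those of Pdgfra2, 0.916 CPM in the other cells of the line and 4.58 CPM in the mural line. Inmt, a methyltransferase for amines, had 2015 CPM in fibroblasts of Pdgfra1 and 1317 CPM in those of Pdgfra2 and 0.483 CPM in the mural line. Dpep1, a membrane dipeptidase, had 1079 CPM in fibroblasts of Pdgfra1 and 57.0 CPM in those of Pdgfra2 and 0.551 CPM in the mural line. All of these were higher on Pdgfra1. Spp1 (osteopontin) had 2159.9 CPM in fibroblasts of Pdgfra1 and 3819.6 CPM in those of Pdgfra2, 0.394 CPM in the other Pdgfra-H2BGFP cells and 585 CPM in the mural line, and Spp1 was higher on Pdgfra2. Among the genes farthest below the other Pdgfra-H2BGFP cells was Mog, the myelin oligodendrocyte glycoprotein, with 2.04 CPM in fibroblasts of Pdgfra1 and 3.26 CPM in those of Pdgfra2, against 3551 CPM in the other cells of the line.

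Genes known from the layers of the meninges were next. Of 11 genes 9 were at least 2-fold above the mural line and 0 lower (all genes 16.5% and 16.7%). Their median log2 ratio was 4.45. Alpl, the tissue-nonspecific alkaline phosphatase, had 2172 CPM in fibroblasts of Pdgfra1 and 525 CPM in those of Pdgfra2, against 33.7 CPM in the mural line. S100a6, a calcium-binding protein, had 424 CPM in fibroblasts of Pdgfra1 and 271 CPM in those of Pdgfra2, against 11.7 CPM in the mural line. Mgp, the matrix Gla protein that restrains calcification, had 13469 CPM in fibroblasts of Pdgfra1 and 858 CPM in those of Pdgfra2, against 592 CPM in the mural line. Dpp4, a peptidase of the fibroblast surface in many organs, had 10.9 CPM in fibroblasts of Pdgfra1 and 18.4 CPM in those of Pdgfra2, against 7.90 CPM in the mural line and 124 CPM in the Cldn5 line, so it did not mark these cells.

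Immediate early and stress genes, a list that also holds heat shock genes, were higher than in the mural line for 16 of 23 genes. None were lower, the shares of all genes were 16.5% and 16.7%, and the median log2 ratio of the list was 1.66. The count of 16 rested on Pdgfra1: with fibroblasts of Pdgfra2 alone it was 8 higher and 5 lower. Fos, a factor induced within minutes of a stimulus, had 10502 CPM in fibroblasts of Pdgfra1 and 2668 CPM in those of Pdgfra2, against 2204 CPM in the other Pdgfra-H2BGFP cells and 1424 CPM in the mural line. Egr1 had 3764 CPM in fibroblasts of Pdgfra1 and 2193 CPM in those of Pdgfra2 and 379 CPM in the mural line. These genes also differed between the plates, with 16 of 23 at least 2-fold higher on Pdgfra1 and 2 lower (all genes 30.3% and 24.9%). Cell cycle genes were low, with 0 of 9 at 20 CPM and 2 of 2 with 5 CPM on either side higher than in the mural line, and together they had 20.3 CPM in fibroblasts of Pdgfra1 and 12.2 CPM in those of Pdgfra2.

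The plates were then compared directly, fibroblasts of Pdgfra1 with fibroblasts of Pdgfra2. Among 11851 genes with 5 CPM on either side, 30.3% were at least 2-fold higher on Pdgfra1 and 24.9% at least 2-fold lower. Solute carriers and channels leaned to Pdgfra2, with 7 of 33 at least 2-fold higher on Pdgfra1 and 19 at least 2-fold lower (median log2 ratio -1.26, all genes 0.10). Immune genes leaned to Pdgfra1, with 13 of 27 higher and 1 lower, or 4 lower without the mixed members. Some genes were read almost solely on Pdgfra1. Tcf21, a factor of embryonic fibroblasts, had 337 CPM in fibroblasts of Pdgfra1 and 0.172 CPM in those of Pdgfra2 and was at 50 CPM in 30 of 57 members on Pdgfra1 and 0 of 28 on Pdgfra2. Smoc2, a matricellular protein, had 454 CPM in fibroblasts of Pdgfra1 and no read in those of Pdgfra2, and the ligand Wnt2 had 147 CPM there and no read in those of Pdgfra2. Abcc9, the regulatory subunit that pairs with Kcnj8, had 425 CPM in fibroblasts of Pdgfra1 and 0.687 CPM in those of Pdgfra2. On the other side Nnat (neuronatin) had 5.21 CPM in fibroblasts of Pdgfra1 and 877 CPM in those of Pdgfra2, and the clock factor Clock had 7.62 CPM in fibroblasts of Pdgfra1 and 209.5 CPM in those of Pdgfra2. Abcc9 is also a pericyte marker, and the pericyte call was made for 16 of 57 members on Pdgfra1 and 2 of 28 on Pdgfra2. Without the mixed members Abcc9 had 262 CPM on Pdgfra1 and 0.440 CPM on Pdgfra2. With every cell thinned to 100000 reads, 23 of 23 plate ratios of named genes kept their direction. Thinning leaves the expected CPM of a cell unchanged, and the named genes included those with the largest plate ratios. The count is therefore a description and gives no support to the plate differences. The plates and any difference between animals cannot be told apart.

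**Figure D4:**
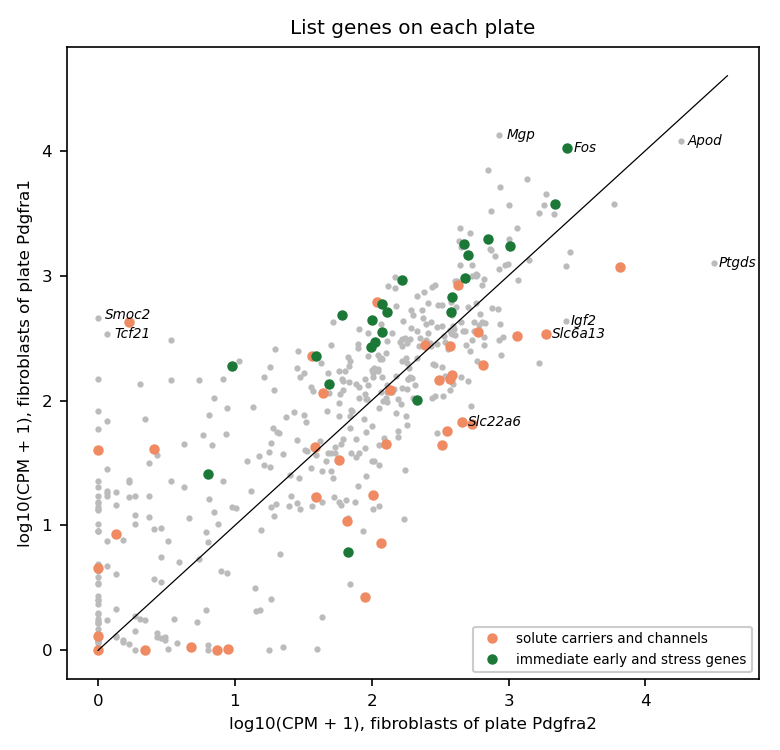
Levels of list genes as log10(CPM + 1) in summed fibroblasts of plate Pdgfra2 (horizontal) and plate Pdgfra1 (vertical), with solute carriers and channels and immediate early and stress genes in colour and equal levels on the line. Slc6a13, Slc22a6, Igf2 and Ptgds lie below the line and Mgp, Fos, Tcf21 and Smoc2 above it.

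Single fibroblasts varied most in a small set of genes among those with 100 CPM. The rank was the distance from the 10th to the 90th percentile of log2(CPM + 1) over members of both plates together. It therefore also holds differences between the plates. Igfbp7, for example, was at 50 CPM in 54 of 57 members on Pdgfra1 and 10 of 28 on Pdgfra2. Mgp had a median of 10201 CPM per cell on Pdgfra1 (10.6 to 39170) and 77.6 CPM on Pdgfra2 (0 to 8218), with 53 of 57 and 14 of 28 members at 50 CPM. Moxd1 was at 50 CPM in 42 of 57 members on Pdgfra1 and 8 of 28 on Pdgfra2, and its cells ran from no read to 16242 CPM on Pdgfra1 and 3655 CPM on Pdgfra2. Alpl was at 50 CPM in 31 of 57 and 8 of 28 members. Among the same genes were Igfbp7, Ptgds, Tgfbi, Spp1, Coch, Tsc22d1, Vcam1 and Igfbp5.

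Several of the variable genes were read in the same cells. Moxd1 and Coch were together at 50 CPM in 39 of 85 members, Moxd1 alone in 11, Coch alone in 3 and neither in 32. Across cells their Spearman correlation was 0.74 on Pdgfra1 (57 cells) and 0.52 on Pdgfra2 (28 cells). The pairs of Moxd1 with other genes than Coch, and those below, were chosen after values had been seen. Moxd1 and Alpl had 0.81 and 0.62 on these plates. Cells of a plate share its depth and handling, so these coefficients are descriptions. Moxd1 thus went with Coch and Alpl on each plate.

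Slc6a13, Igf2 and Slc22a6 formed another set. Slc6a13 and Igf2 were together at 50 CPM in 25 members, Slc6a13 alone in 4, Igf2 alone in 5 and neither in 51, with a correlation of 0.66 on Pdgfra1 and 0.82 on Pdgfra2. Slc6a13 and Slc22a6 were together in 17 members, and Slc22a6 without Slc6a13 in 1. Against this, Alpl and Slc6a13 met at 50 CPM in 1 member, with 38 members holding Alpl alone, 28 Slc6a13 alone and 18 neither. Alpl and Slc22a6 met in 0 of 85 members. Other pairs across the sets met more often. Moxd1 was together with Slc6a13 in 7 members, with Igf2 in 9 and with Slc22a6 in 3. Coch was together with Slc6a13 in 3, with Igf2 in 6 and with Slc22a6 in 1. Mgp met Slc6a13 in 11, so the sets overlapped in part. Slc7a11 and Igfbp2 cut across the sets. Slc7a11 met Slc6a13 in 18 members, Moxd1 in 14 and Coch in 12, and Igfbp2 met Slc6a13 in 22 and Moxd1 in 23. On Pdgfra1 Alpl alone was held by 30 members and Slc6a13 alone by 13, and on Pdgfra2 by 8 and 15. Both kinds of member were therefore found on each plate, in different proportions. With cells thinned to 100000 reads Alpl and Slc6a13 again met in 1 member, Alpl alone was in 39 and Slc6a13 alone in 28. On Pdgfra1 members with Alpl at 50 CPM had a median of 1008500 reads and those with Slc6a13 591077 reads, and on Pdgfra2 the medians were 163930.5 and 185739 reads, in the other order. The pericyte call was carried by 3 of 31 members with Alpl and 6 of 14 with Slc6a13 on Pdgfra1, and by 0 of 8 and 2 of 15 on Pdgfra2.

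**Figure D5:**
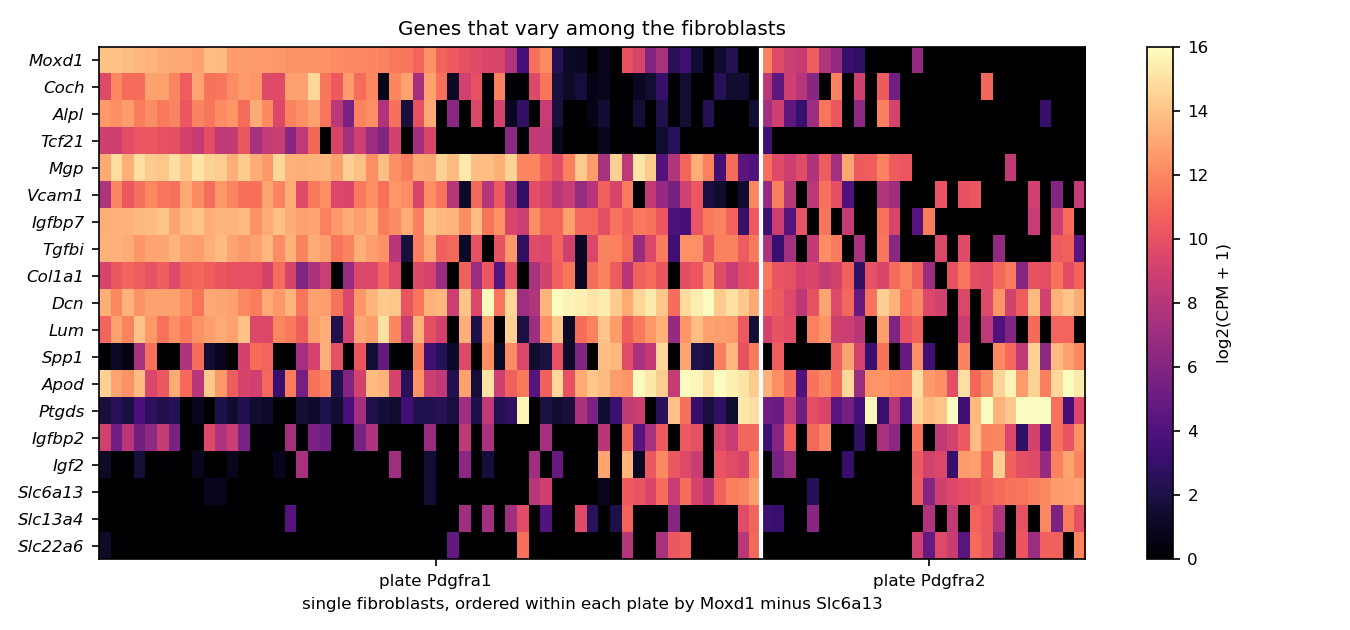
Levels of 19 genes as log2(CPM + 1) in the 85 fibroblasts, each column a cell, with plate Pdgfra1 left of plate Pdgfra2 and cells ordered within each plate by the difference of Moxd1 and Slc6a13. Moxd1, Coch, Alpl and Mgp are high on the left of each plate and Igf2, Slc6a13 and Slc22a6 on the right, while Col1a1 and Dcn run through both. The genes were chosen after values had been seen, and the order was set by Moxd1 and Slc6a13.

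Genes whose level followed the rule markers from cell to cell were ranked by the lower of the 2 plates' Spearman correlations with the summed CPM of the 4 markers, among genes with 100 CPM. Serpinf1 came first, with 0.67 on Pdgfra1 (57 cells) and 0.59 on Pdgfra2 (28 cells). S100a6 had 0.67 and 0.54, Islr, a secreted leucine-rich repeat protein, had 0.54 and 0.61, and Efemp1 had 0.54 and 0.56. Fgfr1, a receptor for fibroblast growth factors, had 0.53 and 0.73. These genes were picked by that ranking after values had been seen, and cells of a plate share its preparation. The 4 markers also chose the cells, so the ranking is a description and gives no support to the label. Dcn weighed most in their sum, with the highest median of the 4 on each plate, 8933.5 CPM on Pdgfra1 and 1447 CPM on Pdgfra2.

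Outside the Pdgfra-H2BGFP line the rule was met by 63 of 1484 mural cells (4.25%, 3.28 to 5.40%) and by 1 of 1445 cells of the Cldn5 line. No mural cell had 3 of the 4 markers, and 62 of the 63 had Col1a2 at 50 CPM and 62 had Dcn at 50 CPM. In these 63 cells Dcn had 788 CPM and Col1a2 576 CPM, while Col1a1 had 1.31 CPM, Lum 3.88 CPM, Pdgfra 0.146 CPM and Mfap4 no read. Vtn had 39349 CPM in them and 31214 CPM in the other mural cells. These cells thus met the rule through Col1a2 and Dcn, at low or no Col1a1, Lum, Pdgfra and Mfap4.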

How the data were processed

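Brain cells carrying a fluorescent reporter were sorted singly into wells and made into Smart-seq2 libraries, per the labels' protocols. The authors deposited raw read counts per gene for each cell, without molecular tags. They also deposited a scaled table of rounded whole numbers that sum to 499421 to 501418 per cell, treated here as a score and used as an alternative. STAR 2.4.2a and mm10 are named in the submitters' processing notes, while the sources used here do not give the gene counter, the annotation or the filters. Genes were matched by symbol to coordinates of the mm10 annotation in the reference tables.

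Counts were divided by a cell's total in genes and multiplied to CPM, and groups were summed before CPM was taken. Ratios are log2((CPM + 1)/(CPM + 1)), and a gene was called at 2-fold or more with 5 CPM on either side. Plates did not overlap where the lower fibroblast plate lay above the highest plate of the other group, or the reverse. Intervals are exact Poisson for levels and Clopper-Pearson for shares, at 95%. A mixed call needed 10% of the median marker sum of the type's own source cells. The labels tie no plate to an animal, so no test was run, and p-values and standard errors are not given.

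Named genes were the rule genes, the reporter genes, Moxd1 and Coch, and defining markers of other cell types. Added were the 12 largest ratios each way against each group with 50 CPM, read in 25% of cells and with no plate overlap, and the 8 largest each way between plates. From each of 20 lists came up to 6 genes by level and 4 at each end of the ratios with 20 CPM, and 12 genes by spread among members. Members and lists were chosen with earlier results of these data known. Alternatives were other membership rules, the mean over cells, other pseudocounts and filters, the scaled table, mixed members left out, single plates, thinning, centring and totals without Rn45s. Some genes are not reported here. The scripts were tested on simulated counts. Python 3.11.15, numpy 2.4.6, pandas 2.3.3, scipy 1.17.1 and matplotlib 3.10.9 were used.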

Additional observations from a re-analysis of the deposited data

Results flagged for a closer look

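Summed levels of Ptgds, prostaglandin D synthase, differed in opposite directions on the plates when the fibroblasts were set against the other Pdgfra-H2BGFP cells. The log2 ratio was -3.35 on Pdgfra1 and 1.40 on Pdgfra2, and the difference between the plates was not tested. The median fibroblast was below the median of the other cells on both plates, with 3.70 against 5204 CPM on Pdgfra1 and 857 against 9718 CPM on Pdgfra2.

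The rule for fibroblasts was also met by 63 cells of the mural line, in a group of cells for which the rule was not made. They held Col1a2 and Dcn and near no Col1a1 or Lum.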

How the results depend on the processing

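Membership in the Pdgfra-H2BGFP line was 85 cells, and 87 at 20 CPM, 82 at 100 CPM, 91 at 1 or more markers, 75 at 3 or more, 85 with the authors' scaled table and 84 after thinning. In the mural line 63 cells met the rule, 618 did with at least 1 marker and 0 with at least 3. In the Cldn5 line 1 cell did, against 0 at 100 CPM, 7 with at least 1 marker and 0 with at least 3. Without plate Pdgfra1 the genes at least 2-fold higher than in the mural line were 2900 and those lower 3840, against 1916 and 1942 with both plates, and those lower than in the Cldn5 line were 3678. Of 120 counts over the gene lists 28 moved by over 1.5 times without Pdgfra1 and 8 without Pdgfra2, and 13 of 160 did without the mixed members. Of 1599 recomputed ratios of named genes 6 changed sign where the main ratio was at least 2-fold. Changes of sign in smaller ratios were not counted. The ratio of Ptgds to the other Pdgfra-H2BGFP cells became 0.14 as the mean over cells and with the scaled table, 0.14 after thinning and 1.40 without Pdgfra1. Without Pdgfra1 the ratio of Emcn to the mural line became -0.90 and that of Igfbp7 to the Cldn5 line -1.19. The cause was not tested. Thinning, centring on the median of all genes and totals without Rn45s were chosen after seeing the data. No paired analysis was possible because the labels give no animals and the plates of the lines share no numbers. With 28 members on Pdgfra2 at a median of 167711.5 reads, a gene in few cells can be missed there.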
